A study of Mus musculus with 6 samples.

Results

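The Ikaros family of zinc finger transcription factors has 5 genes in the mouse: Ikzf1, Ikzf2, Ikzf3, Ikzf4 and Ikzf5, which encode Ikaros, Helios, Aiolos, Eos and Pegasus. The genes were taken by name, a choice made with earlier results of these data known, and all 5 were found among the 21951 protein-coding genes of the GENCODE M21 annotation of the mouse genome, build GRCm38. Trimethylation of lysine 4 of histone H3 (H3K4me3), which marks promoters that are active or ready for use, was mapped by ChIP-seq in a T cell progenitor line and a B cell progenitor line. Each line gave 2 ChIP libraries with a Millipore antibody against H3K4me3 and 1 input library, 6 libraries in all. The authors deposited 1 peak list per line, made from both ChIP libraries together, with 15513 peaks for the T cell line and 19604 for the B cell line. Values per replicate and read counts were not part of these lists, so the depth is unknown, no spread can be given, and no test between the lines was possible.

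Scid.adh.2C2 is the T cell line. Its donor was a CB17-Prkdc<scid> mouse with a spontaneous lymphoma of the thymus, and the line is a subclone of the cells obtained. The B cell line is a pre-B cell line transformed by Abelson virus and is called the Abelson line here. Lineage, stage, the mode of transformation and the history of each line differ together here and cannot be told apart, and each cell type is represented by 1 line only.

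The labels were checked against markers. Of 10 T cell progenitor genes, 9 had an H3K4me3 peak at a promoter in Scid.adh.2C2 and 4 in the Abelson line, beside 45.5% and 48.2% of all protein-coding genes. Cd5 was the exception in Scid.adh.2C2 and was marked in the Abelson line only, while Cd3d, Lck and Tcf7 were marked in both lines. Of 10 B cell progenitor genes, 10 were marked in the Abelson line and 1, Vpreb1, in Scid.adh.2C2. Among 8 myeloid genes, Fcgr3 alone was marked in Scid.adh.2C2 and none was marked in the Abelson line. Another marker list was not used here. The promoter marks followed the labels for most lymphoid genes, with the exceptions named, but the share of T cell genes marked in the Abelson line was near that of all genes.

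Ikaros family proteins bind DNA through zinc fingers near one end and pair with each other through zinc fingers at the other end, so that members present in the same cell form mixed dimers. They recruit chromatin remodelling and histone deacetylase complexes to lymphoid genes and can lower or raise transcription there. Ikaros is needed for lymphocytes to form, Aiolos rises as B cell progenitors mature, Helios is best known in T cells, Eos in regulatory T cells, and Pegasus is the most divergent and most widely expressed member.

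A promoter was defined as the 2500 bp on either side of any annotated transcription start site (TSS) of a gene, and any peak sharing 1 bp or more with it made the gene marked. Under this rule 4 of the 5 family genes were marked in Scid.adh.2C2 (80.0%, Wilson 95% interval 37.6 to 96.4%, which covers counting error only), where 45.5% of all protein-coding genes were marked. In the Abelson line the count was also 4 of 5, beside 48.2% of all genes. The sets were not identical. Ikzf1, Ikzf3 and Ikzf5 were marked in both lines, as were 42.2% of all genes. Ikzf2 was marked in Scid.adh.2C2 only, a pattern that 3.28% of all genes had, and Ikzf4 was marked in the Abelson line only, which held for 5.96%. Where no peak was listed, none had passed the authors' thresholds, and a weaker signal cannot be told from none.

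The lines differed more in what lay inside the genes than in the number of marked promoters. Over the gene bodies with 2500 bp added at each end, 387105 bp in all, there were 22 peaks in Scid.adh.2C2 and 8 in the Abelson line, beside 12793 and 15938 over all protein-coding genes. They covered 37816 bp in Scid.adh.2C2 and 21914 bp in the Abelson line, of which 16408 bp lay under a peak in both lines. That shared length was 43.4% of the length covered in Scid.adh.2C2 and 74.9% of that in the Abelson line, beside 77.6% and 55.8% for the whole lists. Promoter windows of the family held 7 of the peaks of Scid.adh.2C2 and 6 of those of the Abelson line, so the promoters account for little of the difference in number. With peaks of at least 10-fold enrichment only, Scid.adh.2C2 had 8 and the Abelson line 7, so the difference rested on weak peaks, and with peaks of a list within 1000 bp merged they had 13 and 4. The map of the 5 genes shows the extra peaks of Scid.adh.2C2 scattered downstream of the starts.

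**Figure D1:**
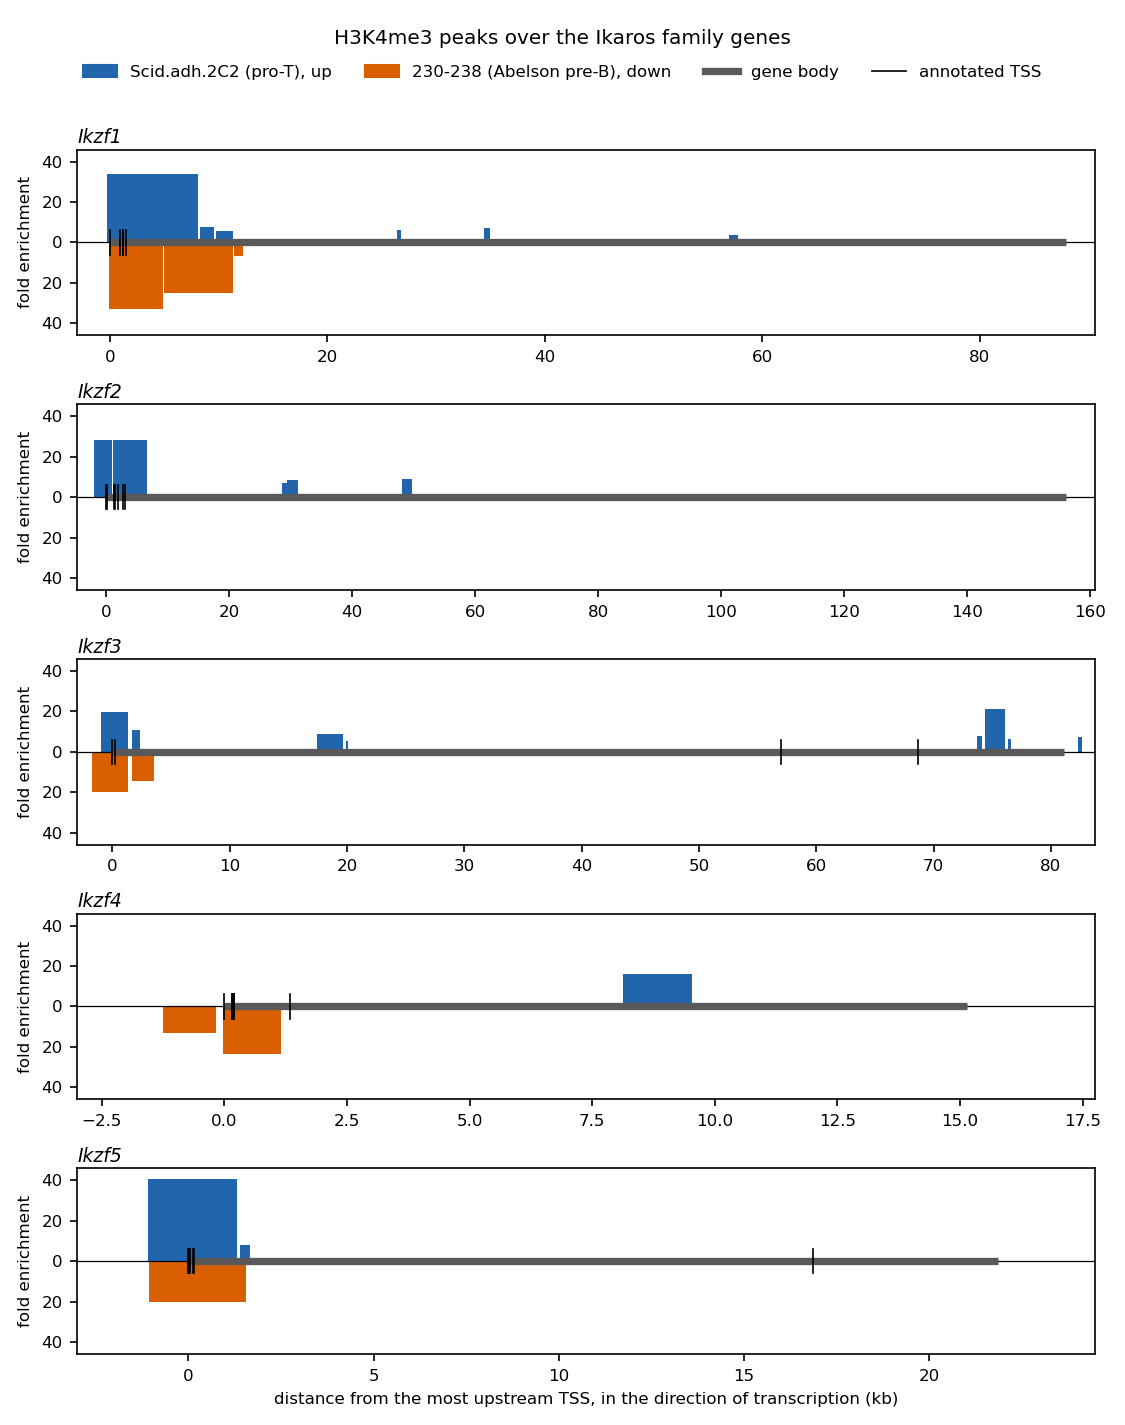
H3K4me3 peaks over the 5 Ikaros family genes, drawn by distance from the most upstream TSS in the direction of transcription (kb) against fold enrichment, with Scid.adh.2C2 above the line and the Abelson line below it. Ikzf2 has peaks in Scid.adh.2C2 alone, the lines mark different places in Ikzf4, and the other genes share their promoter peaks.

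An inner peak was defined as a peak over the gene body that touched no promoter window of any annotated gene, coding or not. All 5 family genes are at least 15000 bp long, so they were read against the 11858 protein-coding genes of that length. In Scid.adh.2C2, 4 of the 5 (Ikzf1, Ikzf2, Ikzf3 and Ikzf4) had at least 1 inner peak, beside 8.1% of these genes, and the 4 genes held 10 inner peaks between them. In the Abelson line none of the 5 had one, although the share over all these genes, 13.2%, was higher there. An inner peak in Scid.adh.2C2 and none in the Abelson line was seen in the same 4 of 5 family genes and in 3.86% of all these genes. The definition and the length limit were chosen after seeing the data. The family genes run from 15149 bp (Ikzf4) to 156032 bp (Ikzf2). The genes they were read against were matched neither for length beyond that limit nor for a marked promoter.

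Most inner peaks of the family were weak. With inner peaks of at least 10-fold enrichment only, Ikzf4 was the 1 family gene left in Scid.adh.2C2, beside 3.71% of all genes of that length. The definition also mattered in the Abelson line. When only the windows of protein-coding genes were kept out, 4 of 5 family genes had an inner peak in Scid.adh.2C2 (8.93% of all) and 1 of 5, Ikzf1, in the Abelson line (14.4% of all). The peaks behind that change were 2 peaks of 24.8-fold and 6.61-fold inside Ikzf1, next to the start of an antisense transcript, Gm12000.

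**Figure D2:**
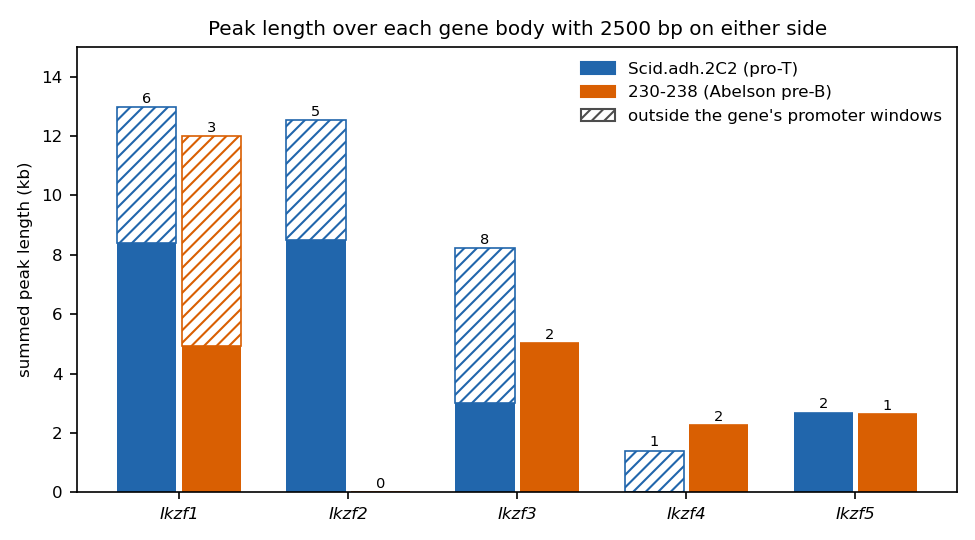
Summed length of the peaks (kb) over each gene body with 2500 bp on either side, in Scid.adh.2C2 and the Abelson line, with the part outside the promoter windows of the gene hatched and the number of peaks above each bar. Ikzf1 and Ikzf2 carry the longest stretches in Scid.adh.2C2 and Ikzf1 and Ikzf3 in the Abelson line, and Ikzf3 has 8 peaks in Scid.adh.2C2 and 2 in the Abelson line.

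Fold enrichment, the height of a peak at its summit over the local background, is comparable only within a list. The list of Scid.adh.2C2 had a median of 20.3 and that of the Abelson line 15.4, so each promoter is also given by its percentile, the share of peaks of its own list with the same or a lower fold enrichment. Neighbouring peaks were joined into a promoter domain when they lay within 1000 bp of each other and the joined stretch touched the promoter. Over all marked genes the median domain was 2295 bp (Scid.adh.2C2) and 2663 bp (Abelson line). Domains of 5000 bp or more were found at Ikzf1 and Ikzf2 among the 4 marked family genes of Scid.adh.2C2, beside 3.89% of all marked genes. The Abelson line had them at Ikzf1 and Ikzf3, again 2 of 4, beside 9.68% of all marked genes. Both rested on the joining there, since the main promoter peaks were 4934 and 3125 bp long.

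Ikzf1 (ENSMUSG00000018654) encodes Ikaros, the founding member, whose loss is frequent in lymphoid leukaemia. The gene lies on the plus strand at chr11:11685003-11772926 and has 5 annotated TSSs within 1442 bp, all of which lay under a peak in both lines. In Scid.adh.2C2 the promoter peak spanned chr11:11684697-11693105, 8409 bp, with a fold enrichment of 34.0 at the 90.8 percentile. In the Abelson line the promoter peak spanned chr11:11684945-11689878, 4934 bp, with a fold enrichment of 33.1 at the 99.2 percentile. The mark thus ran from the most upstream start well into the gene in both lines. Another strong peak of the Abelson line followed directly at chr11:11690005-11696289, 6285 bp long and 24.8-fold enriched, where Scid.adh.2C2 had the tail of its promoter peak and a pair of weak peaks of 7.45-fold and 5.80-fold.

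Joined together, the promoter domain of Ikzf1 had a length of 11587 bp in Scid.adh.2C2 and of 12287 bp in the Abelson line. It ranked 18 by length among the 9980 marked genes of Scid.adh.2C2 and 26 among the 10570 of the Abelson line. By the width of the promoter peaks without joining it ranked 40 and 1223, so the place in the Abelson line rested on the joining. The summits differed. In Scid.adh.2C2 the summit stood at position 11687725, which is 1280 bp past the nearest annotated TSS, and in the Abelson line it stood at 11686913, 468 bp past the same TSS. RefSeq lists further Ikzf1 transcripts that begin at 11690121 to 11690177, inside the promoter peak of Scid.adh.2C2 and inside the following peak of the Abelson line.

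The sequences under these summits are shown because few summits of either list were as poor in G and C. They are 200 bases of the plus strand of GRCm38 centred on each summit, at chr11:11687625-11687824 and chr11:11686813-11687012, followed by the 194 bases before the downstream RefSeq starts, at chr11:11689927-11690120. CpG dinucleotides are in capitals.
Ikzf1 Scid.adh.2C2 summit: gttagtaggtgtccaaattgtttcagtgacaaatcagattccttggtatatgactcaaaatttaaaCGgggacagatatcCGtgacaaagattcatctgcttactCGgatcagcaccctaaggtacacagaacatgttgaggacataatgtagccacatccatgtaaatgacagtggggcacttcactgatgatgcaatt
Ikzf1 pre-B summit: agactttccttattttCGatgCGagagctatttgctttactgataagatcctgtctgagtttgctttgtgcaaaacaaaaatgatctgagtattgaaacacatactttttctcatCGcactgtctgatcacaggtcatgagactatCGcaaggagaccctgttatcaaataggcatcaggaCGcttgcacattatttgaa
Ikzf1 downstream start: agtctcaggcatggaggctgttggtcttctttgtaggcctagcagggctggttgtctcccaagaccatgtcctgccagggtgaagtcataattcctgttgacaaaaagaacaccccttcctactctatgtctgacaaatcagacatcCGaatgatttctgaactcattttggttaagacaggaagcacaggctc
They hold 3, 5 and 1 CpG, at a GC content of 41.0%, 39.0% and 47.4%.

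Elsewhere in Ikzf1, Scid.adh.2C2 had 3 inner peaks, all intronic and all weak, between 3.74-fold and 7.09-fold. Upstream of the gene it had 4 further peaks, with summits 5557, 27431, 27981 and 60780 bp before the most upstream TSS and fold enrichments of 6.24 to 8.31. None of these 7 peaks overlapped a peak of the Abelson line. The nearest upstream peak of the Abelson line was 126223 bp away, so only Scid.adh.2C2 had marks in the region before the gene.

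Ikzf3 (ENSMUSG00000018168) encodes Aiolos, which partners Ikaros in the shut-down of the pre-B cell receptor. It lies on the minus strand at chr11:98464902-98546031 and has 4 annotated TSSs, of which the most upstream pair lay under a peak in both lines and the other pair in neither. The promoter peak of Scid.adh.2C2, chr11:98544702-98546982, was 2281 bp long with a fold enrichment of 19.8 at the 48.6 percentile. The promoter peak of the Abelson line, chr11:98544686-98547810, was 3125 bp long with a fold enrichment of 19.7 at the 67.2 percentile. The fold enrichments were thus near the list median in Scid.adh.2C2 and above it in the Abelson line. Their summits, at 98545439 and 98545480, stood 361 and 320 bp past the nearest TSS.

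Each line had another peak in an intron of Ikzf3 directly downstream, of 747 bp and 10.6-fold in Scid.adh.2C2 and of 1905 bp and 14.4-fold in the Abelson line. With it the promoter domain measured 3325 bp in Scid.adh.2C2, at the 82.9 percentile of marked genes, and 5345 bp in the Abelson line, at the 92.4 percentile. By fold enrichment, Ikzf3 had the lowest promoter of the family genes marked in each line. Ranked by the -log10 q value of the peaks it was still lowest in Scid.adh.2C2, at the 63.4 percentile, but in the Abelson line Ikzf4 and Ikzf5 were lower, at the 70.96 and 75.1 percentiles against 77.0.

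Deep in the gene Scid.adh.2C2 had a strong peak that the Abelson line lacked. At chr11:98469957-98471675 it was 1719 bp long and 21.3-fold enriched, at the 52.3 percentile, and so was higher than the promoter peak of the gene by fold enrichment, but by -log10 q it was lower, 80.2 against 114. Its summit lay in an intron 74983 bp past the most upstream TSS, toward the far end of the gene. An edge of it reached the promoter window of a small nuclear RNA gene, Gm25106, so it was not counted as an inner peak. Peaks of 6.47-fold and 7.61-fold flanked it, and the remaining peaks of Scid.adh.2C2 over Ikzf3 were 2 intronic peaks of 5.49-fold and 8.60-fold and 1 beyond the last exon of 7.46-fold. No peak of the Abelson line overlapped any of the 6.

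The promoter summit and the deep intronic summit of Scid.adh.2C2 are printed side by side, since the mark was of like fold enrichment at both. They are 200 bases each of the minus strand at chr11:98545339-98545538 and chr11:98470948-98471147, with CpG in capitals.
Ikzf3 Scid.adh.2C2 summit: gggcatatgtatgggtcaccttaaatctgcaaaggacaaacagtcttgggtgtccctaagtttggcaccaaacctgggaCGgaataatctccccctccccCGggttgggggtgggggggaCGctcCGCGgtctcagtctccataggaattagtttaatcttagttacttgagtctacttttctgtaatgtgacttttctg
Ikzf3 Scid.adh.2C2 intronic summit: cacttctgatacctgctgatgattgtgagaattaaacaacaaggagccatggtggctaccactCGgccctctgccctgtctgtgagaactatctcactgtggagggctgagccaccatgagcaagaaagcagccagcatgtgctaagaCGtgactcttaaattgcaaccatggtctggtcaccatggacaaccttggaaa
The promoter summit holds 5 CpG and the intronic summit 2, at a GC content of 49.5% and 50.0%.

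Ikzf2 (ENSMUSG00000025997) encodes Helios, known for its place in the T lineage and in early blood progenitors. It is the longest gene of the family, 156032 bp on the minus strand at chr1:69531214-69687245, with 7 annotated TSSs, and all 7 lay under a peak in Scid.adh.2C2 and none in the Abelson line. The 2 most upstream starts lay under a peak at chr1:69686286-69689239, 2954 bp long and 28.4-fold enriched. The other 5 starts lay under a peak at chr1:69680580-69686137, 5558 bp long and also 28.4-fold enriched, at the 75.4 percentile. Together they made a promoter domain of 8660 bp, which ranked 54 among the 9980 marked genes of Scid.adh.2C2. A long mark at all the starts in 1 line thus stood against no mark in the other.

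The 200 bases before the most upstream RefSeq start of Ikzf2 are shown, because the gene without a peak in the Abelson line has the most CpG-rich sequence printed here. They lie within the upstream peak of Scid.adh.2C2, on the minus strand at chr1:69687352-69687551.
Ikzf2 upstream: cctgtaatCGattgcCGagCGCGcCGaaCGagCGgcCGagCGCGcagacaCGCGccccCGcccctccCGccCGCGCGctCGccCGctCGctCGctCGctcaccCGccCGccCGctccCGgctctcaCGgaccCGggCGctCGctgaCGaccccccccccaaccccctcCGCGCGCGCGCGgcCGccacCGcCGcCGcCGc
The stretch has 42 CpG and a GC content of 82.0%.

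Inside Ikzf2, Scid.adh.2C2 had 3 inner peaks, at 9.15-fold, 8.24-fold and 6.89-fold, all in introns. Beyond the gene it had another 4 within 100000 bp, from 7.34-fold to 17.5-fold, the highest with its summit 82090 bp upstream of the most upstream TSS. The Abelson line had no peak at all between positions 67039599 and 71099679 of chromosome 1, an interval of 4.06 Mb, and its nearest peaks lay 2491615 and 1412434 bp from the gene. Scid.adh.2C2 had 11 peaks in this interval. It contains 5 protein-coding genes, of which Ikzf2 alone had a marked promoter in Scid.adh.2C2. Of the 9980 genes marked in Scid.adh.2C2, 1.6% had no peak of the Abelson line within 100000 bp of the gene, and among the 4 marked family genes this was true of Ikzf2.

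Ikzf4 (ENSMUSG00000002578) encodes Eos, a corepressor partner of Foxp3 in regulatory T cells. It is the shortest gene of the family, 15149 bp on the minus strand at chr10:128630843-128645991, with 7 annotated TSSs, of which 6 lay under a peak in the Abelson line and none in Scid.adh.2C2. The promoter peak of the Abelson line at chr10:128644844-128646021 was 1178 bp long with a fold enrichment of 23.3 at the 81.3 percentile. Another peak, 1080 bp long and 13.2-fold enriched, lay just upstream. The promoter domain of 2399 bp was shorter than the median of marked genes. A long noncoding RNA gene on the opposite strand, Gm26876, starts 40 bp from an Ikzf4 TSS and shares the peak.

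Scid.adh.2C2 had 1 peak over Ikzf4, and it lay inside the gene. At chr10:128636463-128637865 it was 1403 bp long and 15.96-fold enriched, at the 38.8 percentile, with its summit in an intron 8745 bp past the most upstream TSS. Under the definition above, this was the strongest inner peak of the family. Among the 6723 protein-coding genes of at least 15000 bp marked in the Abelson line, 1.1% had an inner peak in Scid.adh.2C2 without a promoter peak there, and Ikzf4 was the 1 of the 4 marked family genes with that pattern. The lines thus marked separate places in the same gene.

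RefSeq also places Ikzf4 transcript starts farther upstream, at 128669353 to 128669671. A peak of the Abelson line at chr10:128668881-128669983, 1103 bp long and 15.2-fold enriched, covered them, and Scid.adh.2C2 had none there. The same peak covers the start of a noncoding RNA gene, Gm49782, at 128669315. These starts were looked at after the peaks were seen.

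The promoter summit of the Abelson line and the intronic summit of Scid.adh.2C2 are given to show the sequence at the place marked in each line. They are 200 bases each of the minus strand at chr10:128645609-128645808 and chr10:128637146-128637345, with CpG in capitals.
Ikzf4 pre-B summit: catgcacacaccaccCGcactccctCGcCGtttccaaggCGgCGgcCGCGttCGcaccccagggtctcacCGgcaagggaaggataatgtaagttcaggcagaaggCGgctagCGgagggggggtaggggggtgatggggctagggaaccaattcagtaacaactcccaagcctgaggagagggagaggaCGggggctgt
Ikzf4 Scid.adh.2C2 intronic summit: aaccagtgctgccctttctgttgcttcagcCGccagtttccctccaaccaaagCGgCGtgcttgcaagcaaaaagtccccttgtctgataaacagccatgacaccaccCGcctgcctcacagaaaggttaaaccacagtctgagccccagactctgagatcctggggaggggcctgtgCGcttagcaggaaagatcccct
The promoter summit has 12 CpG and a GC content of 63.5%, and the intronic summit has 5 and 56.0%.

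Ikzf5 (ENSMUSG00000040167) encodes Pegasus, which differs from the others in the DNA it binds. It lies on the minus strand at chr7:131388652-131410521 and has 7 annotated TSSs, of which the same 6 lay under a peak in both lines. The promoter peak of Scid.adh.2C2, chr7:131409205-131411621, was 2417 bp long with a fold enrichment of 40.7 at the 98.5 percentile. The promoter peak of the Abelson line, chr7:131408959-131411583, was 2625 bp long with a fold enrichment of 20.2 at the 69.3 percentile. The summits stood at 131410231 and 131410236, almost the same base. Scid.adh.2C2 had another small peak directly downstream, 271 bp long and 7.97-fold enriched, so the promoter domain was 2760 bp there and 2625 bp in the Abelson line. The position was thus shared while the rank was not, and Ikzf5 had the highest fold enrichment of the family in Scid.adh.2C2.

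A percentile higher by 25 points or more in Scid.adh.2C2 was found for Ikzf5 among the 3 family genes marked in both lines, and for 10.4% of all 9261 such genes. The opposite, a percentile higher by 25 points or more in the Abelson line, was found for none of the 3 and for 17.7% of all. Over all genes marked in both lines the percentile in Scid.adh.2C2 minus that in the Abelson line had a median of -2.73, with quartiles of -18.1 and 10.4. Ranked by the -log10 q value of the peaks in place of fold enrichment, Ikzf5 stood at the 90.2 percentile in Scid.adh.2C2 and the 75.1 percentile in the Abelson line, a gap below 25 points. The direction was the same under both rankings and the size was not, and by -log10 q Ikzf1 and Ikzf2, at the 97.0 and 94.1 percentiles, stood above Ikzf5 in Scid.adh.2C2.

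**Figure D3:**
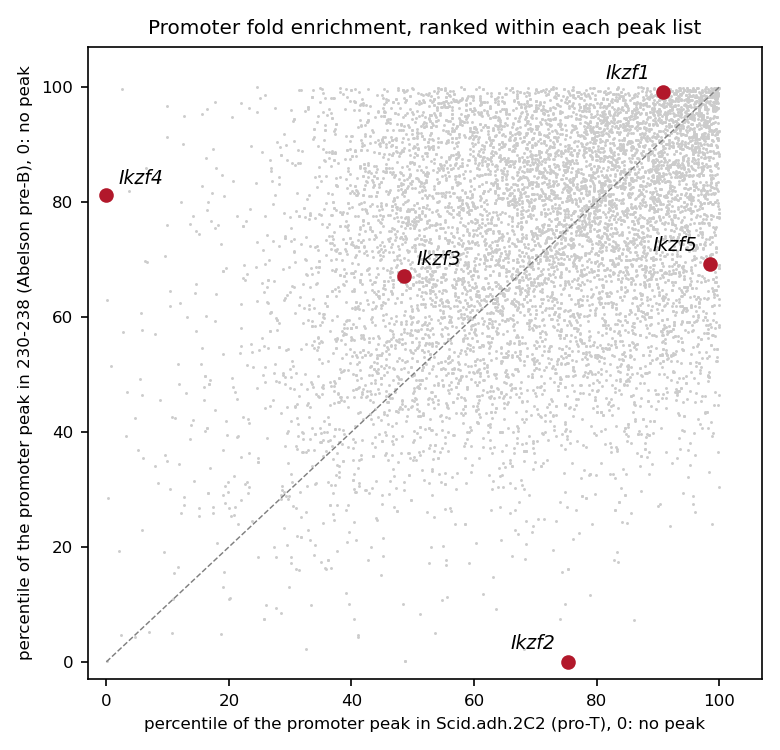
Percentile of the highest promoter peak by fold enrichment within the list of Scid.adh.2C2 (horizontal) and of the Abelson line (vertical), with each gene marked in both lines in grey and the 5 Ikaros family genes in red, 0 standing for no promoter peak. Ikzf2 lies on the horizontal axis, Ikzf4 on the vertical axis, and Ikzf5 below the diagonal at 98.5 and 69.3.

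Ikzf5 shares its promoter with Acadsb, which encodes a mitochondrial dehydrogenase and runs the other way from a TSS 80 bp off. The same peaks therefore count for both genes in each line. The 79 bases between the starts, at chr7:131410522-131410600, and 200 bases around the summit of Scid.adh.2C2, at chr7:131410131-131410330, are shown on the minus strand as the sequence under the promoter with the highest fold enrichment of the family.
Ikzf5 to Acadsb: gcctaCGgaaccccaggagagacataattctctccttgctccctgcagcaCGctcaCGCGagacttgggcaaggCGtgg
Ikzf5 Scid.adh.2C2 summit: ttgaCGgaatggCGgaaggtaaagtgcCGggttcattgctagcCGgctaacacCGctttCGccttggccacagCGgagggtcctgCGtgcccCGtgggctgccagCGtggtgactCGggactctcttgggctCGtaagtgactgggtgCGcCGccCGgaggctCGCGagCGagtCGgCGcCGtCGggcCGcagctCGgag
The summit has 24 CpG at a GC content of 68.0%, and the stretch between the starts has 5.

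CpG content was compared in 300 bases centred on each summit, as the count of CpG over the count that the C and G content would give. All summits of Scid.adh.2C2 had a median of 0.515 and those of the Abelson line 0.430. At the main promoter summits of Scid.adh.2C2 the ratio was 0.315 for Ikzf1, 0.362 for Ikzf2, 0.390 for Ikzf3 and 0.997 for Ikzf5. Ikzf5 stood at the 97.2 percentile of its list, and the other 3 were below the median. At those of the Abelson line the ratio was 0.714 for Ikzf1, 0.445 for Ikzf3, 0.531 for Ikzf4 and 1.01 for Ikzf5, all above the median of that list. The GC content at the Ikzf1 summits was low, 35.7% in Scid.adh.2C2 and 38.7% in the Abelson line, against medians of 53.0% and 51.0%.

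In 300 bases centred on the most upstream TSS the ratio was 0.482 for Ikzf1, 0.949 for Ikzf2, 1.03 for Ikzf3, 0.498 for Ikzf4 and 0.791 for Ikzf5. For Ikzf2 and Ikzf3 the ratio was thus higher at the start than at any summit over the gene. The RefSeq promoter table for GRCm38 held entries for 2 of the 5 members, and the sequence before the downstream starts of Ikzf1 came from it, while the others above were read from the RefSeq genome of that build.

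**Figure D4:**
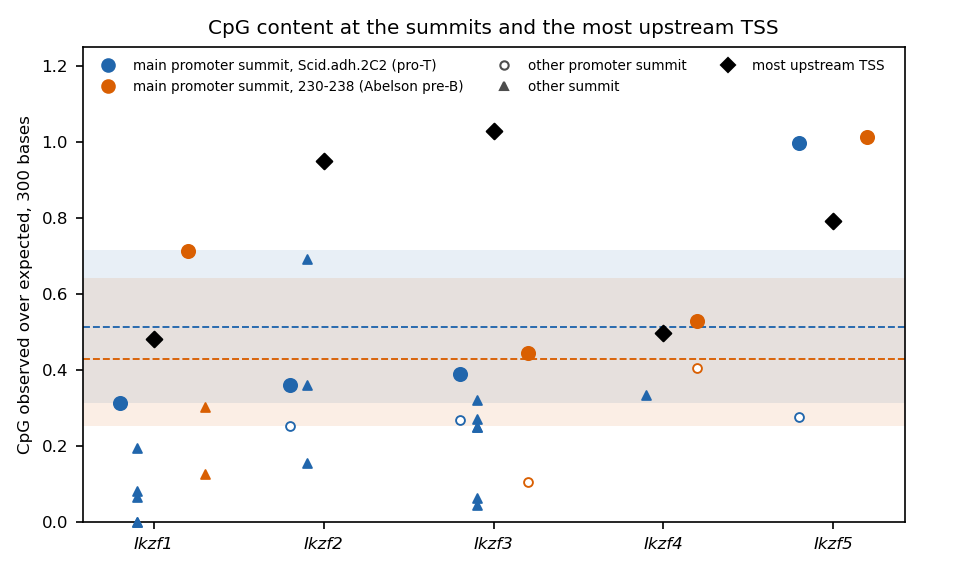
CpG observed over expected in 300 bases around the summits of each family gene in Scid.adh.2C2 (blue) and the Abelson line (orange) and around the most upstream TSS (black), with the median (dashed) and the quartiles (shaded) of all summits of each list. Ikzf5 is CpG-rich at the main promoter summit of each line, while Ikzf2 and Ikzf3 have higher ratios at the TSS than at their summits.

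Short motifs were counted on both strands of the same 300 bases, and a match is a description of letters, not a binding site. TGGGAA, the core of the site bound by Ikaros, was present at 0 of 4 main promoter summits in Scid.adh.2C2, where 25.2% of all summits had it. At the main summits of the Abelson line it was present in 2 of 4, Ikzf1 and Ikzf3, beside 26.5% of all summits. The Runx core TGTGGT was at none of the main promoter summits of either line, beside 18.1% of all summits in Scid.adh.2C2 and 18.9% in the Abelson line. The E-box CANNTG was at 4 of 4 in Scid.adh.2C2 and 3 of 4 in the Abelson line, but 74.6% and 76.5% of all summits have it. CCCNNGGG, which resembles the site of Ebf1, was at 2 of 4 and 3 of 4, beside 14.7% and 14.2%. The windows of the lines overlap at Ikzf3 and Ikzf5, so these counts are not separate observations.

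For each member the 3 protein-coding genes with the most similar promoters were found from 4 percentile ranks over all genes, the fold enrichment and the summed width of the promoter peaks in each of the 2 lines. Ikzf1 was closest to Baz2b, Mgat4b and Prrg2, at distances of 3.10, 3.24 and 3.35 rank points. Ikzf3 was closest to Ap1ar, Adcy7 and Scaf4, at 2.35, 2.71 and 3.09. These are genes marked in both lines and near in rank, although the promoter peaks of the first 3 were narrower than that of Ikzf1 in Scid.adh.2C2. Ikzf2 was closest to Jazf1, Marcks and Arl4c, at 1.73, 2.18 and 2.45, which were wide in Scid.adh.2C2 and unmarked in the Abelson line. Ikzf4 was closest to Zfp423, Cpm and Samhd1, at 1.05, 1.26 and 1.27, which were marked in the Abelson line only. Ikzf5 matched Acadsb exactly because they share their peaks, and was next closest to Cdc27 and Zfp236, at 2.86 and 3.57.

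Within 100000 bp of the 5 genes there were 33 other protein-coding genes, of which 21 were marked in Scid.adh.2C2 and 18 in the Abelson line (beside 45.5% and 48.2% of all genes). They include Fgfr2, unmarked in both lines, whose annotated gene runs over Ikzf5 although the TSSs lie 1127394 bp apart. All 18 were marked in both lines, 3 were marked in Scid.adh.2C2 only (Lrrc3c near Ikzf3, and Zc3h10 and Rpl41, which share a peak, near Ikzf4), and 12 in neither. Over all protein-coding genes, too, most marks were shared, as given above. Around Ikzf4 all 10 neighbours were marked in Scid.adh.2C2 and 8 in the Abelson line, so the missing Ikzf4 promoter peak of Scid.adh.2C2 lay among marked promoters. Ikzf2, by contrast, had no protein-coding neighbour within that distance. At Ikzf3, a peak downstream of the gene was present in both lines, at 18.7-fold in Scid.adh.2C2 and 16.9-fold in the Abelson line.

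The genes of proteins that Ikaros works with were marked almost without exception. Of 18 genes for the NuRD complex and other corepressors and remodellers that Ikaros family proteins bind, 17 were marked in each line (94.4%, Wilson 95% interval 74.2 to 99.0%), beside the 45.5% and 48.2% of all genes given above. Ctbp2 was the gene without a mark in either line. Their median percentile was 81.2 (Scid.adh.2C2) and 82.1 (Abelson line), beside 71.2 and 75.2 over all marked genes, and that of the marked family genes was 83.1 and 75.3. The main ATPase of NuRD, Chd4, stood at the 94.0 percentile in Scid.adh.2C2 and the 64.3 percentile in the Abelson line. All 8 genes for casein kinase 2, which phosphorylates Ikaros, and for the cereblon ubiquitin ligase, through which thalidomide-like drugs destroy Ikaros and Aiolos, were marked in both lines, at median percentiles of 82.4 and 75.3. Crbn itself, the receptor for these drugs, had a fold enrichment of 26.8 in Scid.adh.2C2 and 21.5 in the Abelson line, at percentiles of 70.4 and 74.4. Chd4 and Crbn are named for their roles, after their values were seen.

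The target lists differed more between the lines. Of 10 genes that Ikaros and Aiolos regulate in pre-B cells, 2 were marked in Scid.adh.2C2 (Vpreb1 and Ccnd3, 20.0% of the list, beside 45.5% of all genes) and 10 in the Abelson line (beside 48.2%). The 8 marked in the Abelson line only, a pattern that 5.96% of all genes had, included the receptor parts Cd79a, Cd79b, Igll1 and Vpreb2 and the signalling proteins Blnk and Syk. Igll1, a surrogate light chain gene that Ikaros represses, had the lowest of the 10 fold enrichments, 8.79, at the 19.3 percentile. The others of the 8 were the growth genes Myc and Ccnd2, with fold enrichments of 31.9 and 20.4. With peaks of at least 10-fold enrichment, or with 1000 bp either side of the TSS, the count in the Abelson line was 9. Of the 10 genes, 5 also served as B cell markers above, so the lists are not separate. Ikzf1 and Ikzf3 were marked in both lines, and any link between their marks and those of these genes was not tested.

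Of 9 T cell and Notch target genes of Ikaros, 6 were marked in Scid.adh.2C2 (66.7%, beside 45.5% of all genes) and 4 in the Abelson line (44.4%, beside 48.2%). Dtx1, a Notch pathway ubiquitin ligase, was marked in Scid.adh.2C2 only, at 39.5-fold and the 97.8 percentile, and so was Ptcra, the pre-T cell receptor chain, at 16.6-fold. Cd4, Cd8a and Cd8b1, coreceptor genes of later T cell stages, were marked in neither line. Of 6 early lymphoid target genes, 5 were marked in Scid.adh.2C2 (83.3%) and 4 in the Abelson line (66.7%), beside the same shares over all genes. The recombinase genes Rag1 and Rag2 were marked in Scid.adh.2C2 only, at 16.5-fold and 8.20-fold, and Dntt, which adds bases at the joins, in the Abelson line only, at 6.02-fold. Of 6 adhesion and stem cell genes that rise when Ikaros is lost from pre-B cells, 2 were marked in Scid.adh.2C2 (33.3%) and 4 in the Abelson line (66.7%), with Lhx2 and Ctnnd1 in the Abelson line only and Itga5 and Yap1 in neither. Median percentiles of the marked genes were 80.8 and 72.8 for the pre-B list, 63.5 and 72.6 for the T cell and Notch list, 42.4 and 45.1 for the early lymphoid list, and 61.7 and 57.6 for the adhesion and stem cell list. The intervals in the plot of marked shares are wide for these short lists, and they cover counting error only, since the genes of a list are not replicates of a line. In each line they include the share over all genes for the T cell and Notch and the early lymphoid lists. The same held for the adhesion and stem cell list and for the Ikaros family. For the pre-B list the interval in Scid.adh.2C2, 5.67 to 51.0%, includes 45.5%, and that in the Abelson line, 72.2 to 100%, lies above 48.2%. The latter cannot be read as an excess of Ikaros targets, since 5 of the 10 genes also served as B cell markers. The lists were written with earlier results of these data known.

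**Figure D5:**
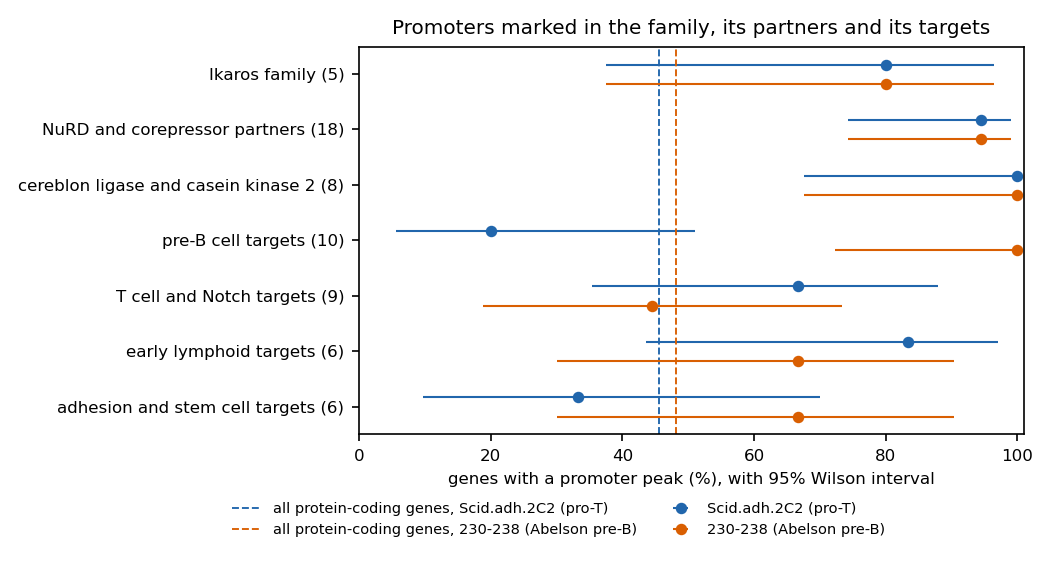
Share of genes with a promoter peak (%) in the Ikaros family and in lists of its partners and targets, with the number of genes in brackets, for Scid.adh.2C2 and the Abelson line, with 95% Wilson intervals and the share over all protein-coding genes as dashed lines. Partners other than Ctbp2 are marked in both lines. Of the pre-B cell targets 2 of 10 are marked in Scid.adh.2C2 and 10 of 10 in the Abelson line.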

How the data were processed

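H3K4me3 was profiled by ChIP-seq in Scid.adh.2C2 and the Abelson line, an Abelson-transformed pre-B line, with 2 ChIP libraries and 1 input library per line. The authors trimmed reads with Trim Galore 0.6.7, mapped them to mm10 (GRCm38) with Bowtie2 2.4.4, called narrow peaks with MACS2 2.2.7.1 at a q threshold of 0.05 against the input, and kept the optimal set between replicates by IDR at 0.05, 1 combined list per line. The input libraries entered only through this peak calling. In the deposited lists the enrichment is a ratio (fold enrichment of the summit over local background). The deposited IDR score is a score of at most 1000. The deposited p and q values are given as -log10 p and -log10 q. They were used unchanged and ranked only within a list.

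TSSs came from GENCODE M21. A promoter was 2500 bp either side of any TSS and was marked by an overlap of at least 1 bp. Gene bodies were extended by 2500 bp. Wilson intervals were computed at 95%. Counts and sequence features were computed with Python 3.11.15, numpy 2.4.6, pandas 2.3.3 and scipy 1.17.1, and plots with matplotlib 3.10.9. The overlap steps were tested on simulated data. The family members and the gene lists were chosen with earlier results of these data known. Genes named were the 5 members, list genes marked in 1 line only (at most 8 per list) or in neither, and the 3 most similar genes per member by Euclidean distance over 4 percentile ranks; other names were chosen after their values were seen, among them the neighbours and the list genes named where both lines were marked. The joining of peaks within 1000 bp into domains, the 5000 bp, 15000 bp and 25 point limits, the definitions of inner peaks and the use of RefSeq starts were also chosen after seeing the data. Alternatives changed the promoter window, the TSSs, the peak threshold, the list length, the gene flank, the merging of peaks, the value ranked and the sequence window. Depth is unknown. Other assays of the study were not analysed here.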

Additional observations from a re-analysis of the deposited data

How the results depend on the processing

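The promoter window, the TSSs, the peak threshold, the list length, the gene flank, the merging of peaks, the value ranked and the place of the CpG window were changed in turn, 226 alternatives in all, and 193 stayed within their limits. The limits were a factor of 1.5 for counts, the Wilson 95% interval for percentiles and covered lengths, and no change at all for fold enrichments and CpG ratios. Of the 193, 63 were fold enrichments, which a filter on peaks cannot change while it keeps the highest promoter peak. The interval for covered lengths took each base pair as a separate trial, which neighbouring bases are not. The joining distance and length limit of the domains, the gene length limit, the 25 point limit, the similarity distance and the motif windows were not changed. The marked counts stayed at 4 of 5 in each line, with the same genes, under all 18 alternatives for windows, TSSs, thresholds and list length, of which the use of RefSeq starts was chosen after seeing the data. Of the 96 alternatives for partner and target lists, 81 gave the same count and the other 15 differed by 1 gene. Peaks over the family in Scid.adh.2C2 went from 22 to 8 with peaks of at least 10-fold enrichment, beside 7 in the Abelson line, and to 13 after merging within 1000 bp. In the Abelson line merging took 8 to 4. The covered length in Scid.adh.2C2, 37816 bp, became 33148 with no flank, 46881 with a flank of 10000 bp, 25488 at 10-fold, 34660 with the highest IDR score only and 39421 after merging. In the Abelson line, 21914 bp became 17905 with no flank, 29649 with 10000 bp, 21132 at 10-fold, 21132 with equal list lengths and 22656 after merging. Windows of 5000 bp took the fold enrichment of Ikzf3 in Scid.adh.2C2 to 22.8, since they reach the peak at Zpbp2. Ranked by -log10 q, the percentiles in Scid.adh.2C2 were 97.0 for Ikzf1, 94.1 for Ikzf2, 63.4 for Ikzf3 and 90.2 for Ikzf5, and in the Abelson line 77.0 for Ikzf3, 70.96 for Ikzf4 and 75.1 for Ikzf5. With equal list lengths those of the Abelson line were 99.0 for Ikzf1, 58.5 for Ikzf3, 76.3 for Ikzf4 and 61.2 for Ikzf5. The CpG ratio moved from summit to most upstream TSS to 0.482 for Ikzf1 in both lines, 0.949 for Ikzf2, 1.03 for Ikzf3 in both lines, 0.498 for Ikzf4 and 0.791 for Ikzf5 in both lines. Apart from the changes that the settings themselves make, the cause was not tested. No paired analysis was possible because each line has 1 combined list, and for the same reason no replicate could be left out. The depth is unknown, so an absent peak sets no limit on the signal.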
